A study of Mus musculus with 12 samples.

Results

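The genes described here in the fetal mouse testis are the nuclear receptor gene Nr2f2, its paralogs Nr2f1 and Nr2f6, and 3 genes that lie near Nr2f2 on chromosome 7, the long non-coding RNA gene Gm29683 and the protein-coding genes Arrdc4 and Mctp2. They were taken by symbol from the table of counts per gene and are 6 of its 24470 genes. All 6 passed a filter on low counts, as did 15572 genes of the whole table. The libraries came from whole testes of E14.5 embryos, with 6 control and 6 cKO libraries and a pool of 3 testes behind each library. Both genotypes carried floxed Nr2f2 alleles (Nr2f2 f/f) and were exposed to tamoxifen at E11.5 and E12.5, and only cKO embryos carried the tamoxifen-inducible Wt1-CreER driver. The driver acts in cells in which the Wt1 gene is active and left some interstitial cells with an intact allele, so a cKO library mixes RNA of deleted and undeleted cells. The floxed allele holds a LacZ cassette that the Nr2f2 promoter drives after deletion, and LacZ was not analysed here. Which exons the loxP sites enclose is not given in the sources used here, and the counts cover the whole gene model, so any transcript left by the deleted allele was counted with intact Nr2f2 RNA.

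The NR2F proteins, also called COUP-TFs, are orphan nuclear receptors that bind DNA at repeats of the element AGGTCA and act mostly as repressors, alone or with a retinoid X receptor. NR2F2 is known for its part in venous identity, lymphatic development and the mesenchyme of many organs, and in the fetal testis it is made by the non-steroidogenic cells of the interstitium. NR2F1 is the closest relative of NR2F2 and is best known from the developing brain and eye, whereas NR2F6 is more distant and widely expressed. ARRDC4 is an arrestin-like adaptor protein, MCTP2 is a membrane protein with calcium-binding C2 domains, and no function of Gm29683 is assumed here.

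Total counts ranged from 7044531 to 39965574 in control and from 7322959 to 59404778 in cKO libraries. Xist, the RNA that coats an inactive X chromosome, was at 304 to 891 CPM (counts scaled to a common library size) in control replicate 1 and cKO replicates 3, 5 and 6, and at 5.15 to 7.68 CPM in the other 8 libraries. These 4 libraries stand apart from what a testis label leads to, so the comparisons of the 6 genes and the interstitial markers are also given without them, whereas the other marker lists are given over all 12 libraries. The labelled tissue was checked by the summed level of its markers in each library. The 4 Sertoli markers summed to 550 to 796 CPM in the 4 libraries with high Xist and to 532 to 1003 CPM in the others, and the 4 germ cell markers to 924.4 to 1667 and 1187 to 1769 CPM. The 4 ovary markers summed to 107 to 259 CPM in the 4 libraries with high Xist, above the 53.5 to 83.3 CPM of all the others. Of all genes tested with edgeR, 1266 differed between genotypes at an adjusted p under 0.05, which is 8.13% (4.85% lower and 3.28% higher in cKO). Values of the control and cKO libraries did not overlap in 5.52% of the genes. Among the 6 members, Nr2f2 was called lower and Gm29683 higher, and these were also the 2 whose groups did not overlap. Nothing in the labels says that the pools came from separate litters, so the p-values measure the spread between these pools. Log2 fold changes are for cKO against control throughout.

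Nr2f2 and its paralogs are alike in sequence, and the longest stretch they share is shown first. The authors' reads, as sequenced, were longer than this stretch, so only a shortened read could lie wholly within it. The longest run of bases that Nr2f2 and Nr2f1 transcripts have in common is 59 bases, in the coding part of exon 1 of the 3 exons of the longest Nr2f2 coding transcript that holds it (mm10, chr7:70360052-70360110, minus strand). It encodes part of the first zinc finger of the DNA-binding domain. Capitals mark the 23 bases that Nr2f6 transcripts hold as well, the longest run it shares with either paralog.

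Nr2f2 stretch shared with Nr2f1: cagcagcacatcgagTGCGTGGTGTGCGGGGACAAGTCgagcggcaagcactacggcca

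Over the whole coding sequence, aligned bases of Nr2f2 and Nr2f1 were identical at 83.3%, those of Nr2f2 and Nr2f6 at 71.2% and those of Nr2f1 and Nr2f6 at 73.6%. Of the 31-base words of the Nr2f2 coding sequence, 3.21% occur in that of Nr2f1 and none in that of Nr2f6. Gm29683 transcripts share no run longer than 12 bases with Nr2f2.

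The 250 bases before the start sites of Nr2f2 and Gm29683 are shown because these are the 2 members whose RNA changed, in opposite directions. The sequences are those of RefSeq (GRCm38.p6), in which all 6 members were matched. The Nr2f2 window lies at chr7:70366747-70366996 and the Gm29683 window at chr7:70337853-70338102, and both genes are read from the minus strand. Capitals mark CCAAT on either strand, the element that the NF-Y factor binds in many promoters.

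Nr2f2, 250 bases before its start: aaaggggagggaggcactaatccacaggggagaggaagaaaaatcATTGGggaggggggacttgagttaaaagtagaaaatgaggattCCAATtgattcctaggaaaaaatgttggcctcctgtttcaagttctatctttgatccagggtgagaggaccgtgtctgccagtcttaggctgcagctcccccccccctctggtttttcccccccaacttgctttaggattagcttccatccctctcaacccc

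Gm29683, 250 bases before its start: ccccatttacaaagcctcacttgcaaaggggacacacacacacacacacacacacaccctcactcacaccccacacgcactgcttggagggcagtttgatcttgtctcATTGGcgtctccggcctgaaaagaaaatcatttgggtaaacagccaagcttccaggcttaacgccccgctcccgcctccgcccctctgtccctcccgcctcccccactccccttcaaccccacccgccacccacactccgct

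CCAAT begins 205 and 162 bases before the start of Nr2f2 and 142 bases before that of Gm29683, and 33.8% of the 32851 promoters in the RefSeq table hold it in a window of this length. The element AGGTCA was found on neither strand in the window of any of the 6 members, against 14.0% of all promoters. Its last 5 letters, GGTCA, were found in the window of Nr2f6 alone among the members and in 35.2% of all promoters. Only 1 start per gene was searched: Nr2f2 has a further start inside this gene model in GENCODE, and Gm29683 and Nr2f1 each have 2 starts in the RefSeq table, of which the one nearest the counted interval was taken. Matches are given as descriptions of these letters and not as sites.

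Nr2f2, the targeted gene (Entrez Gene 11819, mm10 chr7:70351950-70366746, minus strand), was lower in every cKO pool than in any control pool, and the cKO pools differed widely from each other. Control pools had from 163 to 186 CPM with a median of 176 CPM. The cKO pools had 78.9, 119, 75.4, 78.8, 50.2 and 53.6 CPM in replicates 1 to 6. As shares of the control mean these are 45.0%, 67.6%, 43.0%, 44.9%, 28.6% and 30.6%. Replicate 2 was highest, replicates 1, 3 and 4 lay within a few CPM of each other, and replicates 5 and 6 were lowest. The mean ± SD over 6 pools was 175.5 ± 8.87 CPM for control and 75.9 ± 24.5 CPM for cKO, so the coefficient of variation was 5.06% in control and 32.3% in cKO. The fold change was -1.21 on the log2 scale (standard error, SE, 0.16, 95% interval -1.56 to -0.86, quasi-likelihood test of edgeR with adjusted p = 0.000548), or 2.31-fold lower in cKO. By p-value Nr2f2 was in place 82 of the 15572 genes tested.

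The 3 cKO pools with high Xist were also the 3 with the least Nr2f2. In the 8 libraries with Xist under 100 CPM, 5 control and 3 cKO, the log2 fold change of Nr2f2 was -0.94 (adjusted p = 0.00257, edgeR), and with Xist as a covariate over all 12 it was -1.13 (adjusted p = 0.000243, edgeR). The part of Xist-positive tissue in the spread of Nr2f2 among cKO pools was not tested.

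**Figure D1:**
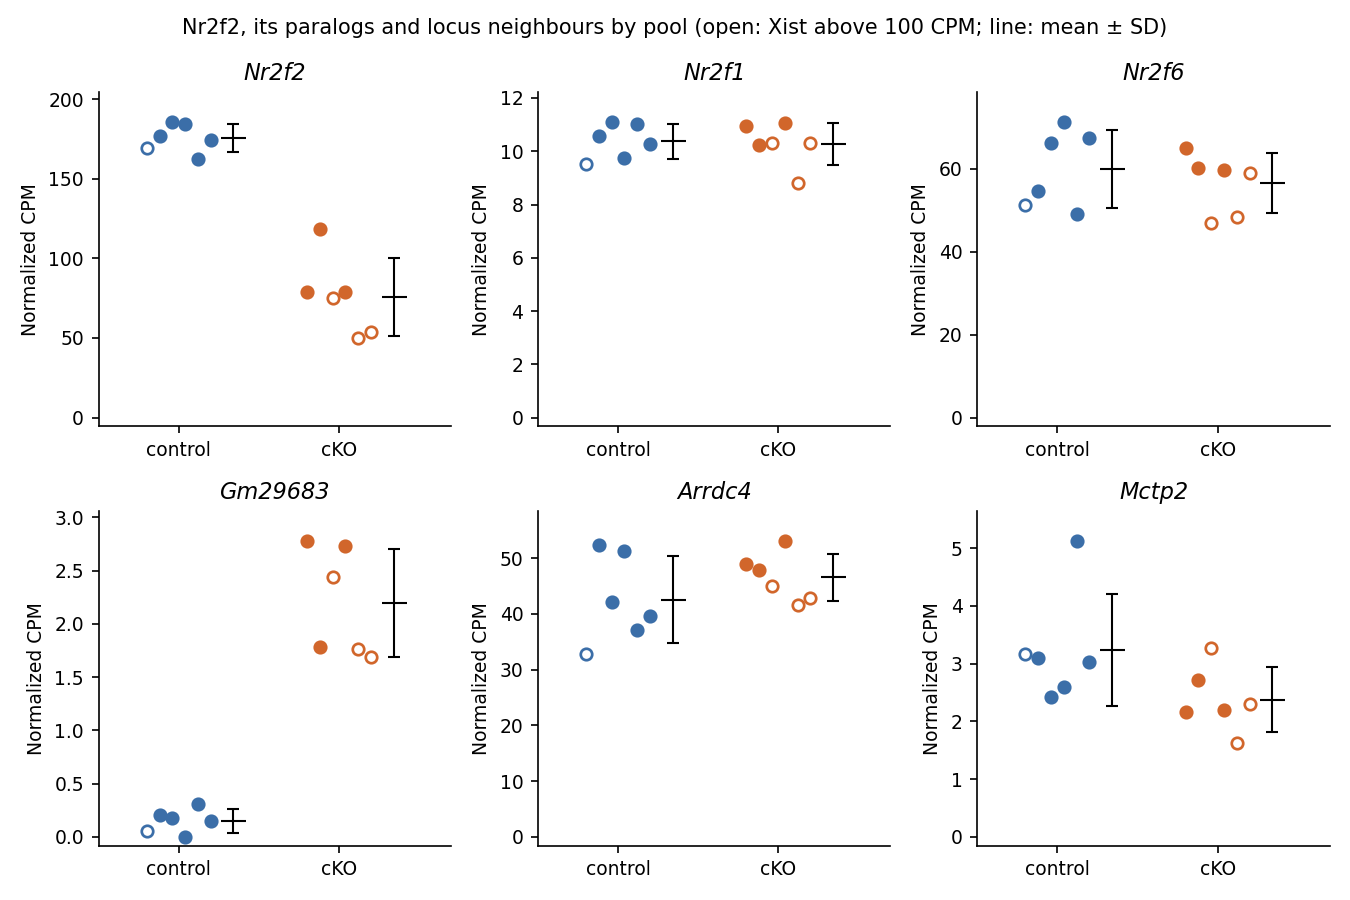
Normalized CPM of each of the 6 genes (vertical axes, linear, separate scale per gene) in the 6 control and 6 cKO pools, drawn from replicate 1 to 6 from left to right within a group. Open circles are libraries with Xist above 100 CPM, and the black line is the mean ± SD. The groups are apart for Nr2f2 (lowest control 163 CPM, highest cKO 119 CPM) and for Gm29683, and they overlap for the other 4 genes.

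Neither paralog passed the test for a difference between genotypes. Nr2f1 (Entrez Gene 13865, mm10 chr13:78188973-78198982, minus strand) had from 9.52 to 11.1 CPM in control pools and from 8.82 to 11.1 CPM in cKO pools, with medians of 10.4 and 10.3 CPM. The ranges lie on top of each other but for cKO replicate 5, the lowest of all pools, where 65 counts stand behind the value. The means were 10.4 ± 0.653 and 10.3 ± 0.796 CPM (SD over 6 pools). The log2 fold change was -0.01 (SE 0.08, adjusted p = 0.976, edgeR), and its 95% interval of -0.18 to 0.17 allows Nr2f1 in cKO testes at 0.881 to 1.13 of its control level.

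Nr2f6 (Entrez Gene 13864, mm10 chr8:71374119-71381952, minus strand) had from 49.2 to 71.4 CPM in control pools with a median of 60.5 CPM, and from 46.9 to 64.9 CPM in cKO pools with a median of 59.3 CPM. The groups overlap over most of their range. The means were 60.0 ± 9.40 and 56.5 ± 7.22 CPM (SD over 6 pools), which differ by -0.08 on the log2 scale (SE 0.11, adjusted p = 0.659, edgeR) with a 95% interval of -0.32 to 0.15. The lower end of this interval allows Nr2f6 at 0.801 of its control level. In the 8 libraries with low Xist the difference was 0.00 on the log2 scale for Nr2f6 and 0.03 for Nr2f1, and neither paralog passed the threshold in any alternative tried.

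Levels of different genes can be set side by side only per transcript length, here as CPM per kb of the longest GENCODE transcript (4222 bases for Nr2f2, 3207 for Nr2f1 and 2218 for Nr2f6). In control testes Nr2f2 stood at 41.6 ± 2.10, Nr2f6 at 27.1 ± 4.24 and Nr2f1 at 3.23 ± 0.204 CPM per kb (SD, n = 6 pools). The order was thus Nr2f2, Nr2f6 and Nr2f1 with no overlap between neighbours. In cKO testes the first 2 places changed over on this scale, with Nr2f6 at 25.5 ± 3.26 and Nr2f2 at 18.0 ± 5.80 CPM per kb. These ranges overlap, since the Nr2f2 value of cKO replicate 2 was 28.1 CPM per kb and above that of Nr2f6 in the same pool. Nr2f1 stayed last at 3.21 ± 0.248 CPM per kb. The change of order, and the shares that follow, depend on the lengths used. By CPM not divided by length, the cKO means were 75.9 for Nr2f2 and 56.5 for Nr2f6. Which transcripts of each gene were present was not tested.

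Of the summed level per kb of the 3 genes, Nr2f2 held 55.1% to 60.5% in control pools and 29.9% to 48.1% in cKO pools. The sum itself was 71.9 ± 6.06 CPM per kb for control and 46.7 ± 7.85 for cKO (SD over 6 pools), with no overlap between 64.1, the lowest control pool, and 58.4, the highest cKO pool. Nr2f6 held 34.6% to 40.8% of the sum in control and 46.4% to 62.5% in cKO pools.

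**Figure D2:**
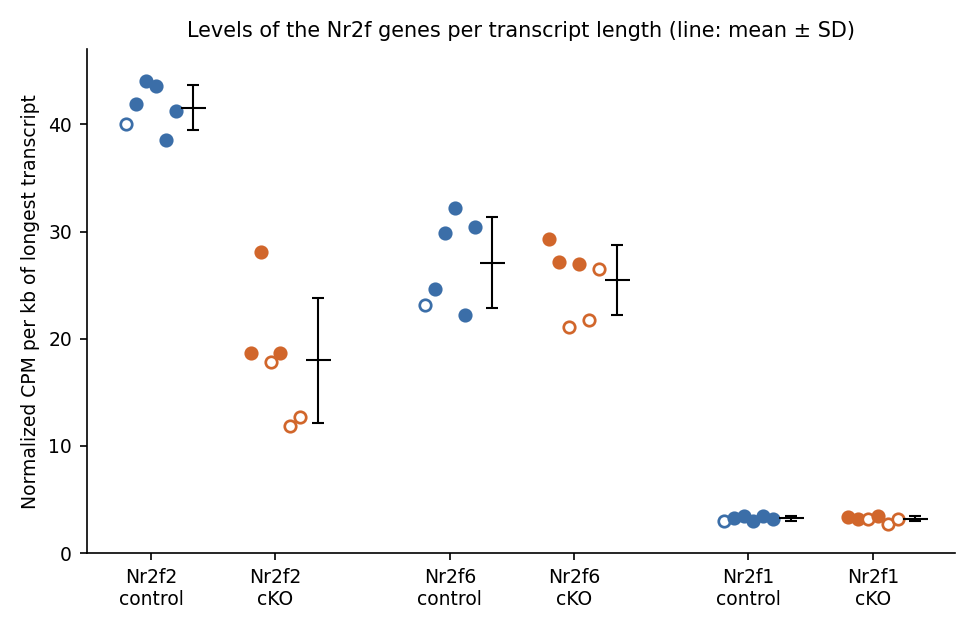
Normalized CPM per kb of the longest transcript (vertical axis, linear) of Nr2f2, Nr2f6 and Nr2f1 in each pool, with open circles for libraries with Xist above 100 CPM and the mean ± SD as a line. Nr2f2 falls from a mean of 41.6 to 18.0, under the mean of Nr2f6 in cKO testes, while Nr2f1 has means of 3.23 and 3.21.

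Ratios within a library depend little on how libraries are scaled against each other. The log2 ratio of Nr2f2 to Nr2f1 ran from 3.87 to 4.23 in control pools and from 2.37 to 3.52 in cKO pools. Its mean dropped by 1.25 in cKO (exact permutation of the 12 libraries, two-sided p = 0.00217, which is the smallest possible for 6 against 6). The log2 ratio of Nr2f2 to Nr2f6 fell by 1.18, with the same exact p. In both ratios the highest cKO pool was under the lowest control pool, which restates the separation of Nr2f2 itself and is no independent evidence. In the 8 libraries with low Xist the ratio to Nr2f1 dropped by 0.99 (exact permutation, p = 0.0179, no smaller value being possible for 5 against 3).

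Nr2f2 marks interstitial cells, and other markers of these cells moved with it in part. Of the 4 interstitial markers, Tcf21, a transcription factor of mesenchyme, and Wnt5a, a secreted WNT ligand, were lower in cKO with log2 fold changes of -1.03 (adjusted p = 0.000383, edgeR) and -0.64 (adjusted p = 0.0241, edgeR). Pdgfra, a growth factor receptor, was at -0.41 (adjusted p = 0.0649), and 2 of the 4 markers did not pass the threshold. The summed level of the 4 ran from 941 to 1243 CPM in control and from 580 to 1021 CPM in cKO pools, and 4 cKO pools lay under every control pool. Their mean log2 level also moved with Xist, since control replicate 1 was the lowest of the control pools and cKO replicates 3, 5 and 6 were the lowest of the cKO pools. This mean dropped by 0.56 in cKO over all 12 libraries (exact permutation, two-sided p = 0.00649) and by 0.37 in the 8 libraries with low Xist, a comparison added after the data were seen (exact permutation p = 0.0179, the smallest that 56 splits can give). Without control replicate 1, none of the 6 cKO pools reached the lowest remaining control pool on this scale. In the 8 libraries Tcf21 was at -0.84 (adjusted p = 0.00171, edgeR), Wnt5a at -0.42 (adjusted p = 0.0133) and Pdgfra at -0.24 (adjusted p = 0.120). The part of the libraries with high Xist in the marker levels was not tested further. In bulk RNA, fewer cells of a type and less RNA per cell cannot be told apart.

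Relative to the mean log2 level of these 4 markers, Nr2f2 ran from -0.65 to -0.23 in control and from -1.36 to -0.82 in cKO pools. The mean ratio dropped by 0.71 on the log2 scale in cKO (exact permutation of the 12 libraries, two-sided p = 0.00217), and the ratio of Nr2f2 to Nr2f1 dropped by 1.25. The ratio to the markers dropped by 0.60 in the 8 libraries with low Xist (exact permutation p = 0.0179). cKO replicate 2 had the highest ratio of the cKO pools, as it had the highest Nr2f2 level.

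Lists of other cell types also differed between the groups. All 4 contractile markers and 4 of 5 fetal Leydig markers were lower, 2 of 4 immune markers were higher, and none of the 4 Sertoli, 4 germ cell, 4 endothelial or 4 testicular epithelium markers passed the threshold. In each of 3 further lists 1 gene was called while the list ranged over both directions: Pax8 of 5 mesonephros markers was higher (list from -0.59 to 0.64 on the log2 scale), Mc2r of 3 adrenal markers was higher (-1.03 to 0.81), and Wnt4 of 4 ovary markers was lower (-0.77 to 0.49, median 0.18). No gene of any list was at 0 in all libraries. Summed levels per pool were 320 to 436 CPM in control and 178 to 277 CPM in cKO for contractile markers, 1561 to 2910 and 841 to 1745 CPM for fetal Leydig markers, and 25.4 to 33.3 and 36.7 to 46.7 CPM for immune markers. They were 72.7 to 143 and 97.5 to 110 CPM for mesonephros, 8.60 to 14.2 and 13.3 to 17.5 CPM for adrenal, and 74.1 to 259 and 53.5 to 156 CPM for ovary markers. The fetal Leydig sum also moved with Xist. It was 841 to 1561 CPM in the libraries with high Xist and 1311 to 2910 CPM in the others. Control replicate 1, at 1561 CPM, was the lowest control. The part of such shifts in the values of the 6 genes was not tested.

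Gm29683 rose in every cKO pool, from counts near nothing in control testes. It is a long non-coding RNA gene (Entrez Gene 624549, mm10 chr7:70178868-70337852, minus strand) with 3 GENCODE transcripts, and its start lies 14.1 kb beyond the 3′ end of Nr2f2 on the same strand. Control replicates 1 to 6 had 2, 5, 7, 0, 4 and 1 counts, 19 in all. The cKO replicates had 77, 27, 85, 92, 13 and 101 counts, 395 in all. Scaled for depth, control pools ran from 0 to 0.306 CPM and cKO pools from 1.69 to 2.78 CPM, so the groups are far apart. The count of 0 in control replicate 4 allows up to 0.141 CPM (3 counts of the library, counting error only).

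The means were 0.147 ± 0.109 CPM for control and 2.20 ± 0.508 CPM for cKO (SD over 6 pools). The log2 fold change was 3.99 (SE 0.39, 95% interval 3.17 to 4.82, adjusted p = 4.05e-05, edgeR), or 15.9-fold higher in cKO with an interval of 8.98 to 28.2-fold. Gm29683 passed the filter on low counts only through the cKO libraries, since the filter asked for about 0.382 CPM and 0 of the 6 control and 6 of the 6 cKO libraries reached it, so a gene kept in this way had to differ. Without the filter the log2 fold change was 3.98 (adjusted p = 3.80e-05, edgeR). In the 8 libraries with low Xist it was 3.90 (adjusted p = 0.000398, edgeR). Per kb of its longest transcript (2488 bases), Gm29683 in cKO testes stood at 0.883 ± 0.204 CPM (n = 6 pools), well under the 18.0 CPM per kb that Nr2f2 still had there.

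Set against Nr2f2 in the same library, Gm29683 had nearly the same value in all cKO pools but replicate 2. There were 3.52, 1.51, 3.24, 3.46, 3.51 and 3.15 Gm29683 counts per 100 Nr2f2 counts in cKO replicates 1 to 6. All pools but replicate 2 thus lie between 3.15 and 3.52, and replicate 2, with the most Nr2f2, has 1.51. Control pools had from 0 to 0.188 per 100. The means were 0.0855 ± 0.0659 for control and 3.07 ± 0.780 for cKO (SD over 6 pools), and the log2 ratio was higher in cKO by 4.77. This ratio had to differ, since Gm29683 was higher and Nr2f2 lower in every cKO pool, and no test is given for it.

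Across the 6 cKO pools the log2 levels of Nr2f2 and Gm29683 gave Pearson's r = 0.28 (exact permutation p = 0.564) and Spearman's rho = 0.60 (exact permutation p = 0.242), with Benjamini-Hochberg adjusted values of 0.627 and 0.403 over 10 relations. Without the 2 pools farthest from the median of Nr2f2, r was 0.99. Without cKO replicate 2 alone it was 0.98 (exact permutation p = 0.025), and without replicate 5 or replicate 6 it was 0.04, so the value depends on single libraries. The 3 cKO pools with high Xist had 1.69 to 2.44 CPM of Gm29683 and the other 3 had 1.78 to 2.78 CPM, and the relation was not computed within these groups of 3.

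**Figure D3:**
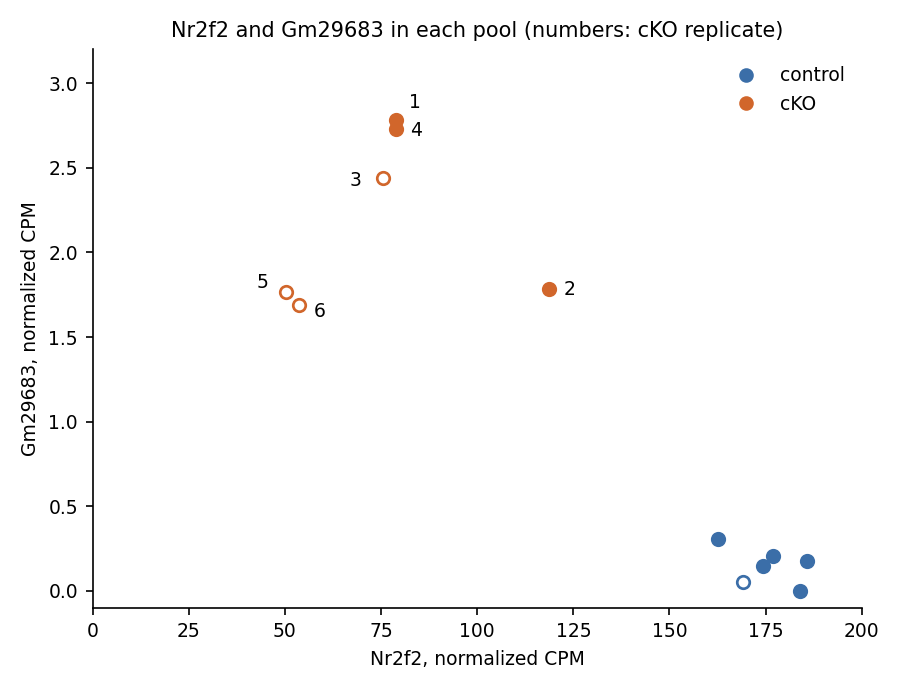
Normalized CPM of Gm29683 (vertical axis) against that of Nr2f2 (horizontal axis) in each of the 12 pools, with open circles for libraries with Xist above 100 CPM and the replicate number beside each cKO pool. Control pools sit at 163 CPM of Nr2f2 or more and at 0.306 CPM of Gm29683 or less, 5 cKO pools rise together from the lowest values of both genes, and cKO replicate 2 stands to the right of them.

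The next tested protein-coding genes on either side did not pass the threshold. Arrdc4 (Entrez Gene 66412, mm10 chr7:68736994-68749238, minus strand) lies 1603 kb downstream of Nr2f2. It had from 32.8 to 52.4 CPM in control and from 41.7 to 53.1 CPM in cKO pools, with means of 42.5 ± 7.81 and 46.5 ± 4.25 CPM (SD over 6 pools). Control replicates 1, 5 and 6 lay under every cKO pool, and the other controls were mixed with the cKO pools. The difference was 0.13 on the log2 scale (SE 0.11, 95% interval -0.11 to 0.37, adjusted p = 0.481, edgeR), and it was 0.17 in the 8 libraries with low Xist (adjusted p = 0.359).

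Mctp2 (Entrez Gene 244049, mm10 chr7:72077830-72306595, minus strand) lies 1711 kb upstream of Nr2f2. It had from 2.41 to 5.13 CPM in control pools with a median of 3.06 CPM, and from 1.63 to 3.27 CPM in cKO pools with a median of 2.24 CPM. Control replicate 5 stood apart at 5.13 CPM, and 12 counts stand behind the lowest value in cKO replicate 5. The means were 3.24 ± 0.973 and 2.38 ± 0.559 CPM (SD over 6 pools). The log2 fold change was -0.41 (SE 0.20, adjusted p = 0.222, edgeR), and its interval of -0.84 to 0.03 allows Mctp2 in cKO testes at 0.558 to 1.02 of its control level. Without control replicate 5 it was -0.23, and in the 8 libraries with low Xist it was -0.44 (adjusted p = 0.254, edgeR).

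Within the 6 control pools Mctp2 was lower where Nr2f2 was higher (log2 CPM, Pearson's r = -0.92, exact permutation p = 0.00278, adjusted over the 10 relations 0.0278). Spearman's rho was -0.94 (exact permutation p = 0.0167) and did not hold after adjustment (0.167). Without the 2 pools farthest from the median of Nr2f2, r was -0.90. Within the 6 cKO pools r was 0.58 (exact permutation p = 0.206). Control Nr2f2 spans only 163 to 186 CPM, and as few as 21 Mctp2 counts stand behind a control value. Leaving out each control pool in turn, an alternative chosen after seeing the data, gave r from -0.98, without control replicate 1 and its high Xist, to -0.90. The other 8 relations of Nr2f2 with a member had adjusted p from 0.257 to 0.974 by Pearson's r.

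Of the 4 genes in the table within 1 Mb of Nr2f2, 3 could be tested: Nr2f2, Gm29683 and B130024G19Rik, a non-coding RNA gene read from the other strand whose first part overlaps the 5′ part of Nr2f2 (mm10 chr7:70365383-70411146, plus strand). B130024G19Rik had a mean of 12.6 CPM and a log2 fold change of 0.15 (SE 0.14, adjusted p = 0.524, edgeR). The counts were made by strand, so its reads were counted apart from those of Nr2f2. Thus, of the RNAs that border Nr2f2, the one beyond its 3′ end rose, and the one that starts opposite its 5′ end did not pass the test.

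Within 5 Mb of Nr2f2 the table holds 54 genes, of which 34 were tested and 5 were called. Leaving the members aside, 3 of 30 (10%) were called, all lower, against 4.85% lower and 3.28% higher among all genes. Their median log2 fold change was 0.05, against 0.00 over all genes tested. The 3 were Chsy1, a chondroitin synthase, at -0.42 (adjusted p = 0.00407, edgeR), Selenos, a selenoprotein of the endoplasmic reticulum, at -0.30 (adjusted p = 0.0128), and Chaserr, a long non-coding RNA gene beside Chd2, at -0.26 (adjusted p = 0.0363). Chsy1 and Selenos lie close together, 4178152 and 4262545 bases downstream of Nr2f2, and Chaserr lies 3173052 bases upstream. Chaserr lost its call with unscaled totals, with no filter on low counts, with a replicate block, with Xist as a covariate and in 10 of the 12 fits that left out a library (all but those without control replicate 1 or cKO replicate 4). In the 8 libraries with low Xist, Nr2f2, Gm29683 and Selenos were called in this window.

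**Figure D4:**
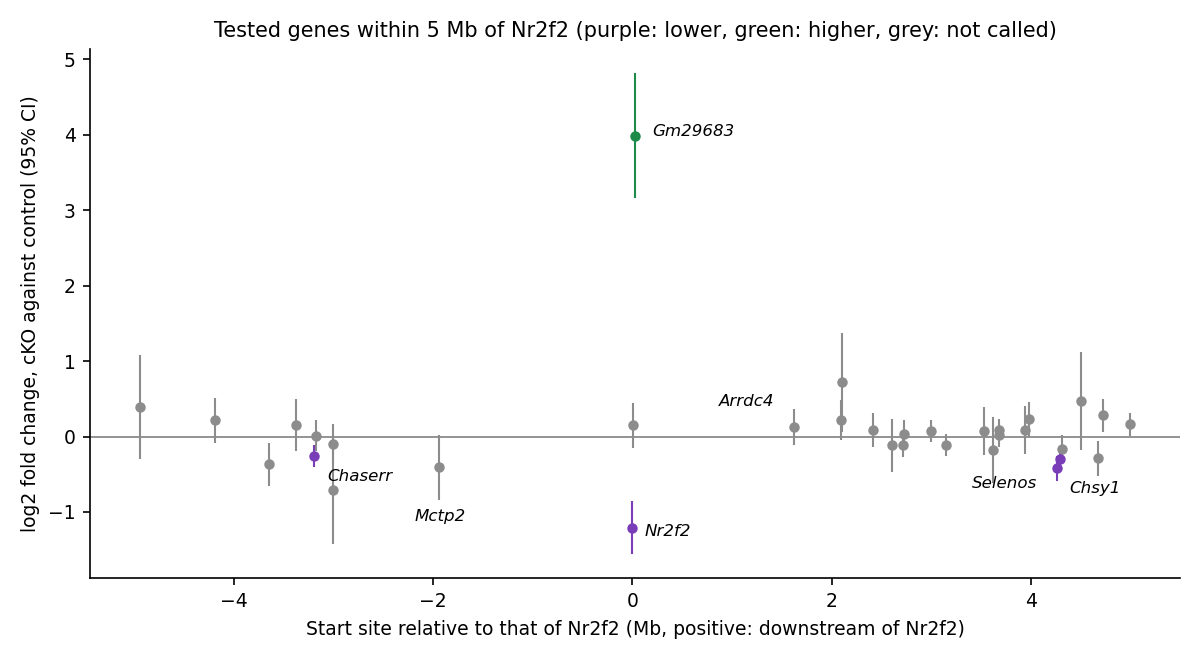
Log2 fold change of cKO against control with its 95% interval (vertical axis) for the 34 tested genes within 5 Mb of Nr2f2, by the distance of their start site from that of Nr2f2 in Mb (horizontal axis, positive values downstream). Gm29683 stands at 3.99 beside Nr2f2 at -1.21, and all other genes lie between -0.71 and 0.72.

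NR2F proteins work through partners. Of 21 partner genes, all tested, 1 was higher and none was lower in cKO (4.76%, against 8.13% of all genes called and 3.28% called higher), and their median was 0.04 on the log2 scale. The 3 retinoid X receptors Rxra, Rxrb and Rxrg, which pair with nuclear receptors, had log2 fold changes of -0.21, 0.04 and -0.23, and none passed the test. None of the 8 corepressor genes passed, with the scaffold gene Ncor1 at 0.09 and the histone deacetylase genes Hdac1, Hdac2 and Hdac3 at 0.04, -0.22 and 0.00. The 4 zinc finger partners ran from -0.10 for Zfpm2 to 0.43 for Bcl11b (adjusted p = 0.095, edgeR), and none passed. Sqstm1, which encodes an autophagy receptor known to bind nuclear receptors, was at -0.19 (adjusted p = 0.0695, edgeR). Without control replicate 1, the control with high Xist, 5 partners were called, namely Bcl11b, Hdac2, Ncoa2, Prox1 and Sqstm1. That fit called 3106 of the 15579 genes it tested, so the rise in calls was not confined to partners.

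The partner that rose was Prox1, a homeobox factor that pairs with NR2F2 in lymphatic endothelium. Control replicates had 1.38, 0.895, 0.704, 0.659, 0.765 and 0.723 CPM, and cKO replicates 2.53, 1.45, 2.21, 2.64, 2.99 and 2.86 CPM. The groups do not overlap, control replicate 1 is the highest control, and cKO replicate 2 is the lowest cKO pool and lies close to it. The means were 0.854 ± 0.270 and 2.45 ± 0.556 CPM (SD over 6 pools), 1.47 apart on the log2 scale (SE 0.22, adjusted p = 0.00123, edgeR). The 4 endothelial markers did not pass the threshold, with summed levels of 244 to 330 CPM in control and 240 to 309 CPM in cKO pools.

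Of 9 genes that NR2F2 is known to control in vessels, 1 was lower and none was higher in cKO (11.1%, against 8.13% of all genes), with a median of 0.02. Hey2, a Notch effector of arteries, had from 5.21 to 9.87 CPM in control and from 3.37 to 6.48 CPM in cKO pools. The groups overlap, with cKO replicate 2 inside the control range. The difference was -0.67 on the log2 scale (SE 0.18, adjusted p = 0.0368, edgeR), and it was no longer called with a replicate block, in the 8 libraries with low Xist, or when 1 of 9 libraries was left out (control replicates 2, 3, 4 and 5, and every cKO replicate but replicate 2). Angpt1, which encodes a ligand of the TEK receptor, was at -0.59 (adjusted p = 0.0587), and the neuropilin genes Nrp1 and Nrp2 were at 0.21 and -0.19 (adjusted p = 0.163 and 0.206, edgeR).

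**Figure D5:**
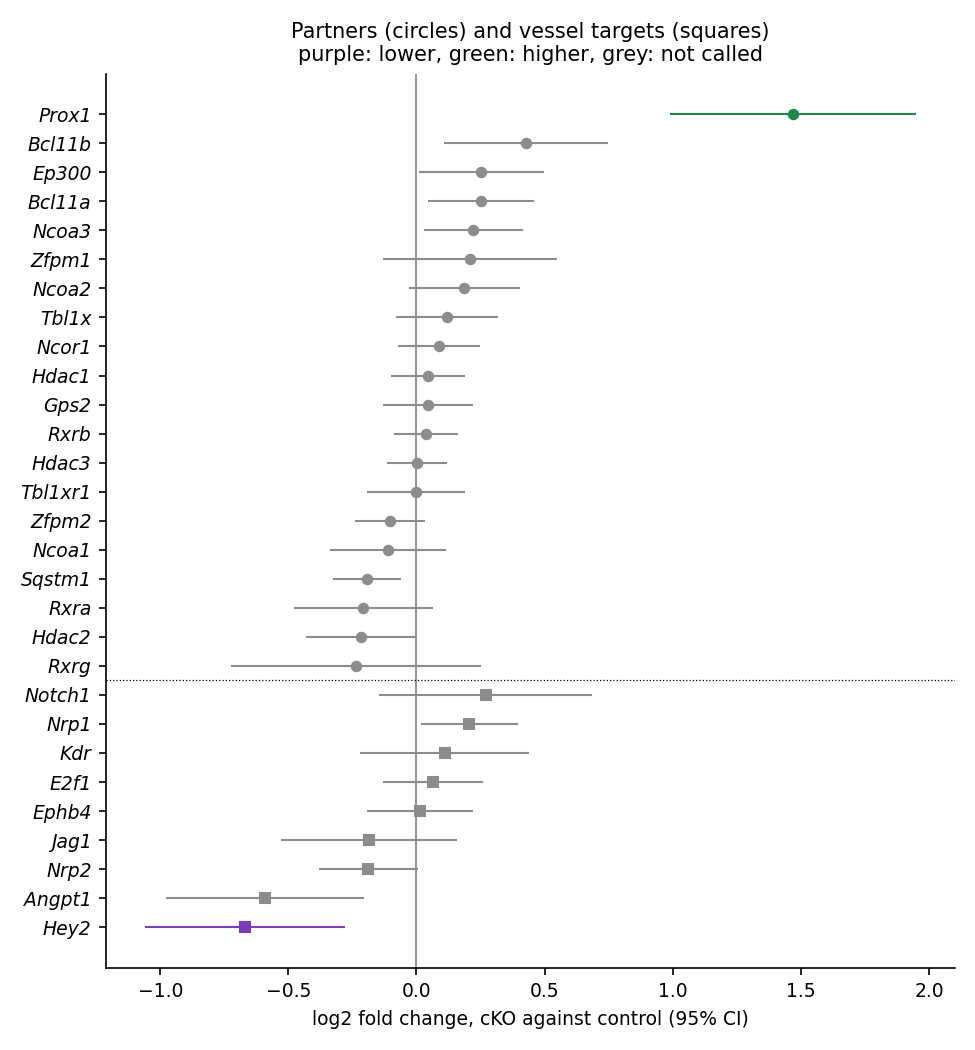
Log2 fold change of cKO against control with its 95% interval (horizontal axis) for 20 of the 21 partner genes (circles, 1 that was not called is not drawn) and 9 vessel target genes (squares, under the dotted line). Prox1 at 1.47 and Hey2 at -0.67 are the genes called, and some grey intervals also leave out 0, since calls rest on p-values adjusted over all genes.

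Over 14261 genes whose mean reached 1 CPM, those whose log2 levels followed those of Nr2f2 most closely over the 12 libraries were sought by the root mean square difference of centred log2 CPM, which is 0 for an identical pattern. The closest were Col4a4 (0.117), Lamc3 (0.161), Loxl4 (0.169), Colec11 (0.177) and Emilin3 (0.180), where Nr2f2 itself departs from its mean by 0.697. Col4a4, which encodes a collagen chain of basement membranes, had from 35.4 to 49.4 CPM in control pools. In cKO replicates 1 to 6 it had 20.1, 32.2, 16.4, 19.1, 13.0 and 13.7 CPM, the same order of levels as Nr2f2 in the highest pool (replicate 2) and the lowest (replicate 5). Lamc3, a laminin gene, had 33.1 CPM in cKO replicate 2 and 11.1 CPM in replicate 5. The log2 fold changes of the 5 genes, which follow from the choice, were between -1.39 and -0.98.

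The genes closest to Gm29683 by the same measure were Tbx18 (0.632), Ibsp (0.642), Asic4 (0.665), Dkk1 (0.696) and 9630028I04Rik (0.767), where Gm29683 itself departs from its mean by 1.85. These are larger distances than those around Nr2f2, and counts near 0 in control pools add counting error to them. Tbx18, a T-box transcription factor, had from 0.847 to 1.16 CPM in control and from 6.65 to 8.77 CPM in cKO pools. The log2 fold changes of the 5 genes, which follow from the choice, were between 2.59 and 3.69.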

How the data were processed

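The authors prepared strand-specific libraries from polyadenylated RNA and sequenced them as read pairs. The submitters' processing notes name Trim Galore 0.6.7, STAR 2.5 and featureCounts of Subread 1.5.0-p1, with mm10. The authors deposited raw counts per gene on RefSeq Curated models, not normalized.

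All 12 libraries were used, by the genotype in their labels. No 2 libraries of a group agreed within sampling noise. In R 4.3.3, edgeR 4.0.16 scaled libraries by TMM, kept genes by filterByExpr (minimum count 10, minimum total 15) and compared groups by its quasi-likelihood test with Benjamini-Hochberg adjustment over all genes tested (threshold 0.05). CPM were taken from these scaled sizes, and log2 values added a prior count of 2. Ratios and relations were tested by exact permutation. The fit was tested on simulated data.

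The members and lists were chosen with earlier results of these data known. Named genes were the members, tested genes within 1 Mb, called genes within 5 Mb, called partners and targets (and those next nearest the threshold), and 5 genes most like Nr2f2 and Gm29683. Part of these is not reported here. Transcripts came from GENCODE M21, on the same build. Alternatives were other scalings and filters, DESeq2 1.42.0, limma-voom 3.58.1, a replicate block, Xist as a covariate, the 8 libraries with low Xist, and leaving out each library. Floors of counts cover counting error only, whereas the intervals of log2 fold changes come from the edgeR fit and include the spread between pools.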

Additional observations from a re-analysis of the deposited data

Results flagged for a closer look

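In the 12 sets of 6 pools examined (6 genes in 2 genotypes), 2 pools stood far from the others of their group, and chance alone gives this in about 1 set in 20. Nr2f1 in cKO replicate 5 was at 8.82 CPM, with a gap to the next pool of 0.638 of the group's range. Mctp2 in control replicate 5 was at 5.13 CPM, with a gap of 0.723 of the range.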

How the results depend on the processing

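Nr2f2 and Gm29683 kept their direction and their call in every alternative that could be run. For Gm29683 the alternatives that kept the filter on low counts lend no support, since only cKO libraries reached it. Gm29683 and Mctp2 could not be fitted with at least 5 CPM in at least 6 libraries. The value of Nr2f1 lies so near 0 that it turned in sign with unscaled totals (0.025), DESeq2 (0.0083), limma-voom (0.012), the 8 libraries with low Xist (0.033) and Xist as a covariate (0.035). Nr2f6 was at 0.0024 in the 8 libraries. DESeq2 called 1919 genes, of which 54.2% were lower, against 1266 and 59.7%. This share was 48.0% in the 8 libraries and 51.6% with unscaled totals, which moved the median of all genes to 0.03. Within 5 Mb, 3 genes were called in the 8 libraries. Partners called were 0 with at least 5 CPM, which leaves Prox1 out, 3 with DESeq2 (Prox1, Sqstm1 and Bcl11b) and 2 in the 8 libraries (Prox1 and Bcl11b). Targets called were 2 with DESeq2 (Hey2 and Angpt1), and in the 8 libraries the 1 called was Nrp1.

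When single libraries were left out, log2 fold changes were -1.38 to -1.12 for Nr2f2, -0.031 to 0.029 for Nr2f1, -0.13 to -0.03 for Nr2f6, 3.74 to 4.23 for Gm29683, 0.06 to 0.20 for Arrdc4 and -0.52 to -0.23 for Mctp2. Genes called numbered 816 at the lowest, with cKO replicate 4 left out, and 3106 at the highest, with control replicate 1 left out, those within 5 Mb ran from 4 to 10, partners from 1 to 5 and targets from 0 to 4, again highest without control replicate 1. The ratio of Nr2f2 to Nr2f1 ran from -1.39 to -1.16, that to interstitial markers from -0.78 to -0.66, and the relation with Gm29683 from 0.043 to 0.98. The cause of these shifts was not tested.

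Same-numbered pools did not deviate together (correlations from -0.33 to 0.24, 2 of 6 over 0.1), and no pool matched its own number best. These values gave no sign that the replicate numbers pair the pools, but so few correlations cannot exclude a weak pairing. With a replicate block 931 genes were called, Nr2f2 was at -1.26, Gm29683 at 4.05, and 0 targets passed in edgeR, against 1 without the block. Depth limits Gm29683 and Mctp2, which had as few as 0 and 12 counts in a library.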
